A study of Mus musculus with 9 samples.

Results

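The genes described here encode the nuclear subunits of the mitochondrial respiratory chain and of ATP synthase. They were chosen by gene symbol alone, as symbols that start with Nduf (assembly factors named Ndufaf left out), Uqcr, Cox4 to Cox8 or Atp5, together with Sdha, Sdhb, Sdhc and Sdhd. Of the 19937 genes tested on the arrays, 82 met this rule: 36 of complex I, 4 of complex II, 8 of complex III, 17 of complex IV and 17 of complex V. RNA came from MC3T3-E1 subclone 4 cells, a clonal mouse preosteoblast line from calvaria, which differentiates in ascorbic acid and beta-glycerophosphate. All 9 samples were infected with a GFP-carrying lentivirus and sorted for GFP, so the controls carried virus and a hairpin as well. The groups were shRunx2 day 9 (a hairpin against Runx2, 9 days of differentiation), Scr day 9 (a scrambled hairpin, 9 days of differentiation) and Scr day 0 (the scrambled hairpin, proliferating cells), with 3 arrays each, described as biological replicates. A single hairpin against Runx2 was used, so its own side effects and the loss of Runx2 cannot be told apart, and no shRunx2 group at day 0 was among the samples.

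The respiratory chain passes electrons from NADH (complex I) and succinate (complex II) through ubiquinone to complex III, on through cytochrome c to complex IV, and there to oxygen. Complexes I, III and IV pump protons out of the matrix, and ATP synthase (complex V) makes ATP as the protons return. Most subunits are encoded in the nucleus and are expressed in nearly all cells, while osteoblasts are known to use both glycolysis and oxidative phosphorylation. Several subunits of complex IV exist as paired forms, one found in most tissues and the other in muscle, lung or testis.

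Values are log2 expression as deposited, so a log2 change of 1 is a doubling, and each is given with the standard error (SE) of a limma fit to all 9 arrays. A gene rose or fell where its p, adjusted by Benjamini-Hochberg over all 19937 genes, was under 0.05. The arrays of a group correlated at 0.9981 to 0.9991 over all genes. Differentiation markers moved with the labels. Of 8 osteoblast markers measured, 5 fell in shRunx2 day 9 against Scr day 9 cells and none rose, and 6 rose in Scr day 9 against Scr day 0 cells and none fell. Of 5 proliferation markers, 1 fell in shRunx2 day 9 against Scr day 9 cells and 4 fell in Scr day 9 against Scr day 0 cells. Among markers of other cell types, 0 of 11 muscle markers and 0 of 9 adipocyte markers passed the test after knockdown (3 and 0 at an unadjusted p under 0.05), while the macrophage list of 9 had 1 call each way. The mean log2 level of that list was 7.88 to 7.92 on shRunx2 day 9 arrays and 7.86 to 7.87 on Scr day 9 arrays. It was 7.76 to 7.77 on Scr day 0 arrays. The largest change in the list was that of Lyz2, 1.22 in shRunx2 day 9 and 0.80 in Scr day 9 against Scr day 0 cells. The median changes of the list were -0.021 and -0.012 in that order, with 6 and 5 of the 9 genes below 0. Of 4 neuron and glia markers 2 fell in Scr day 9 (list mean 8.22 to 8.29) against Scr day 0 cells (8.63 to 8.72). The largest of these changes was that of Tubb3 (-1.29). The part of these shifts in the results below was not tested. The subunit genes were bright on these arrays, with 76 of 82 above the median gene.

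Knockdown of Runx2 changed no subunit gene past the threshold. The RNA came from whole cultures, so fewer cells of a kind and less RNA per cell cannot be told apart in any value below. Of the 82 genes, 0 rose and 0 fell in shRunx2 day 9 against Scr day 9 cells with limma, against 2.73% of all genes that rose and 4.66% that fell. At an unadjusted p under 0.05 there were 6 subunit genes (7.32%), all lower in shRunx2 cells, where 19.6% of all genes were past it. The median change of the 82 genes was -0.045, beside -0.0041 over all genes, and 66 were below 0 and 16 above. The shifts were small throughout: the 95% confidence intervals of all 82 genes lay between -0.37 (the lower bound of Ndufa6) and 0.31 (the upper bound of Atp5md), that is within 1.29-fold lower and 1.24-fold higher. The median change moved to -0.025 without replicate 1 of shRunx2 day 9 and also to -0.025 without replicate 1 of Scr day 9. These arrays held the lowest and the highest median of the subunit genes among all 9, at -0.052 and 0.058 relative to each gene's mean. In 16 of the 82 genes all shRunx2 day 9 arrays lay below all Scr day 9 arrays, and in 1 they lay above. Over all genes these shares were 15.3% and 8.34%.

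**Figure D1:**
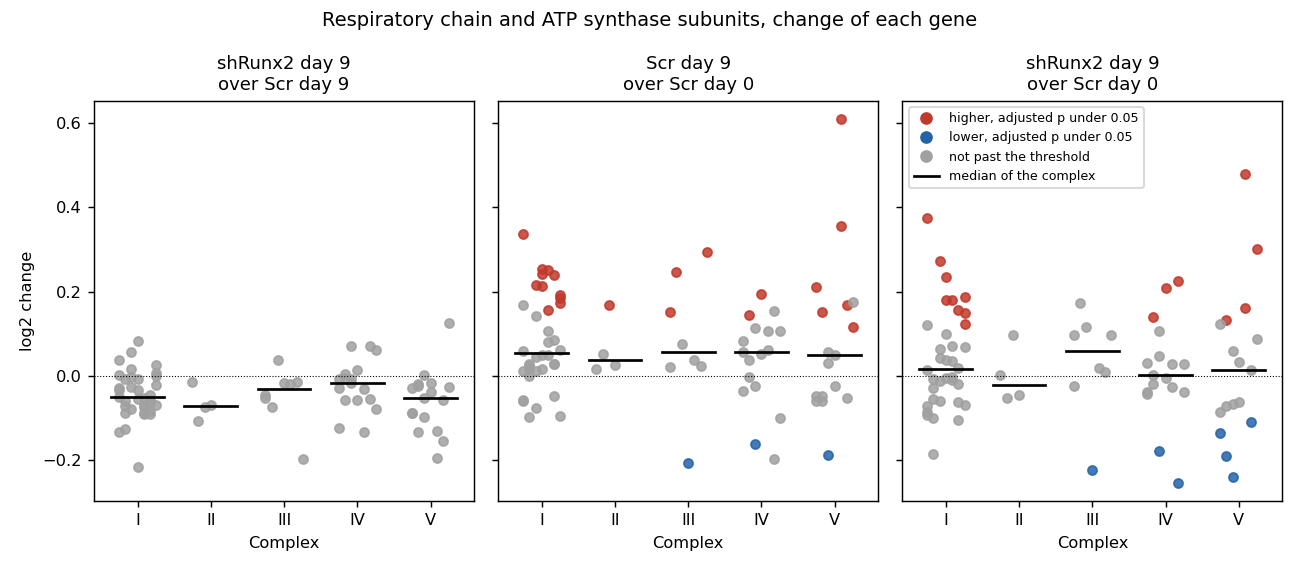
Log2 change of each of the 82 subunit genes (y axis) by complex (x axis) in the 3 comparisons. Each point is a gene, red where it rose and blue where it fell at an adjusted p under 0.05, grey otherwise, and each bar is the median of a complex. No gene is coloured after knockdown (left), while 23 are red and 3 blue in Scr day 9 over Scr day 0 cells (centre) and 16 are red and 7 blue in shRunx2 day 9 over Scr day 0 cells (right).

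The gene nearest to the threshold was Atp5k, which encodes the small e subunit of the ATP synthase membrane part, known for its role in ATP synthase dimers. Its log2 level was 10.48, 10.70 and 10.66 on the shRunx2 day 9 arrays, against 10.82, 10.75 and 10.86 on the Scr day 9 arrays. The groups did not overlap, and the change was -0.19 ± 0.058 (adjusted p = 0.0726). In complex I, Ndufa6, an accessory subunit of the matrix arm, read 10.47, 10.59 and 10.47 in shRunx2 day 9 cells, against 10.76, 10.70 and 10.71 in Scr day 9 cells. Here too the groups did not overlap, with a change of -0.22 ± 0.069 (adjusted p = 0.0952). In complex III, Uqcrh, the hinge protein that helps cytochrome c bind cytochrome c1, read 11.60, 11.87 and 11.84 in shRunx2 day 9 cells, against 11.95, 11.96 and 12.01 in Scr day 9 cells. Replicate 1 of shRunx2 day 9 was the lowest array, and the change was -0.20 ± 0.063 (adjusted p = 0.0959). These 3 genes were past the threshold in some other settings: all 3 when only genes brighter than the median were fitted (adjusted p = 0.0319, 0.0418 and 0.0428), Ndufa6 and Uqcrh with array weights (0.0381 and 0.04), and Ndufa6 alone with the arrays of the 2 groups only (0.0288) or without replicate 3 of Scr day 0 (0.014).

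The other complexes stayed farther from it. In complex IV, Cox7a2l, a protein that links complexes III and IV into supercomplexes, read 9.94, 10.14 and 10.09 in shRunx2 day 9 cells, against 10.23, 10.10 and 10.25 in Scr day 9 cells, and the groups overlapped (-0.13 ± 0.056, adjusted p = 0.214). In complex II, Sdhc, a membrane anchor of succinate dehydrogenase, had a change of -0.07 ± 0.044 (adjusted p = 0.427). The medians by complex were -0.05 for complex I, -0.071 for complex II, -0.031 for complex III, -0.017 for complex IV and -0.051 for complex V.

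Differentiation of the control cells came with more calls than knockdown did, mostly upward. In Scr day 9 against Scr day 0 cells 23 of the 82 genes rose (28%), where 14.5% of all genes did, and 3 fell (3.66%), where 17.1% of all genes did. At an unadjusted p under 0.05 there were 33 subunit genes (40.2%), a share close to that of all genes (38.6%). The median change was 0.053, beside -0.016 over all genes. With each array centred on its median the subunit median was 0.0197, and 18 genes rose and 6 fell. The genes that rose were 11 of complex I, 1 of complex II, 3 of complex III, 2 of complex IV and 6 of complex V, and the 3 that fell were Uqcrc1, Atp5pb and Cox5a. Atp5e alone passed a 1.5-fold change. Leaving out single arrays gave 16 to 23 rises, with 16 both without replicate 2 of Scr day 0 and without replicate 1 of Scr day 9. It gave 1 to 3 falls, with 1 without replicate 3 of Scr day 9. In all 18 alternative settings 14 of the genes passed: Atp5e, Atp5k, Uqcrh, Ndufa1, Ndufa3, Ndufb3, Ndufb5, Ndufb11, Ndufc1, Ndufs3, Ndufv2, Cox6c and Cox7a2, which rose, and Atp5pb, which fell.

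**Figure D2:**
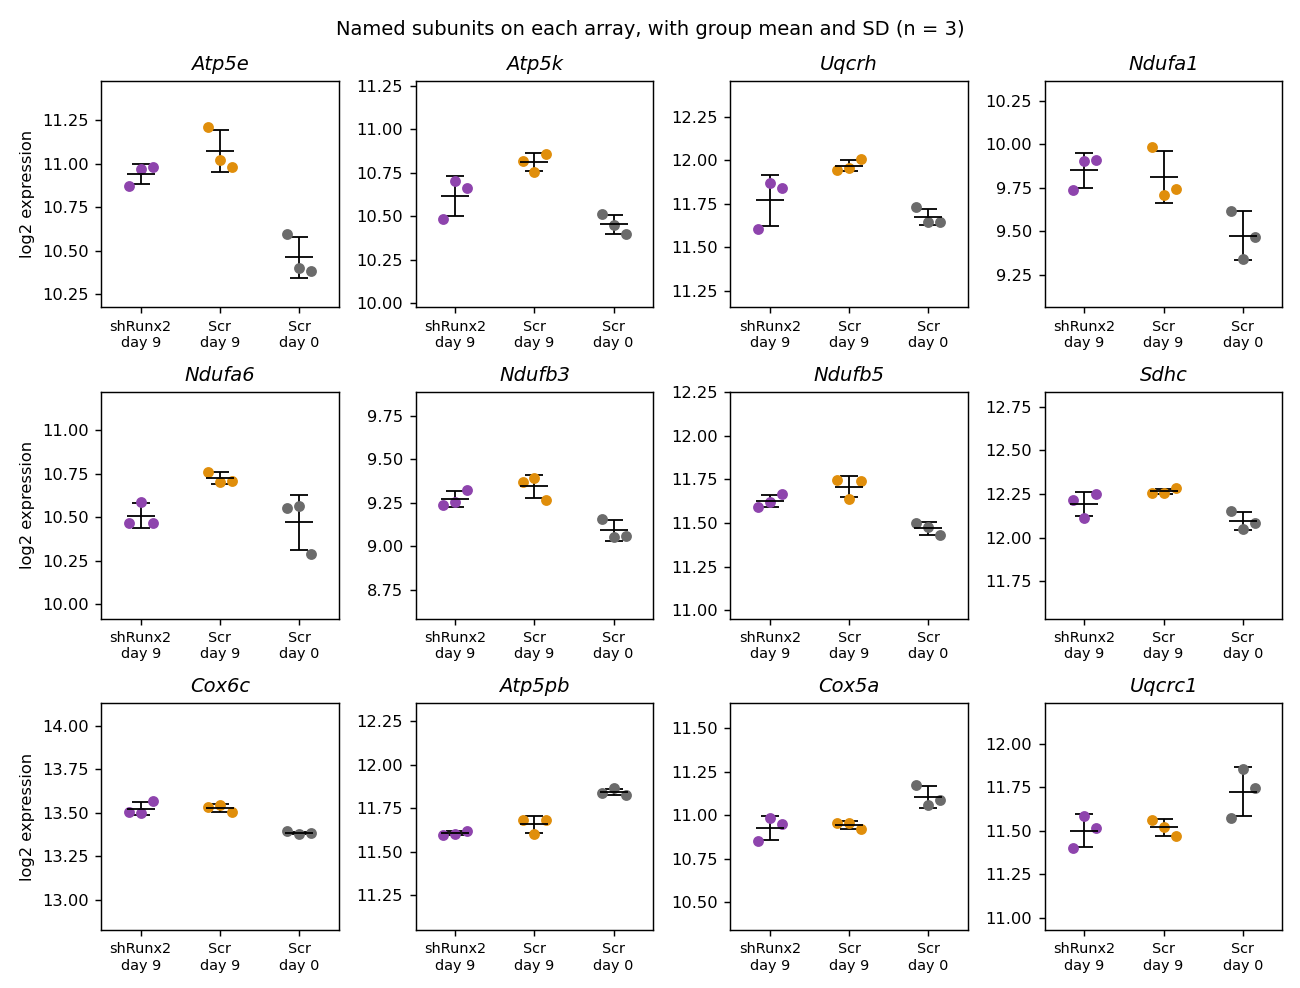
Log2 expression (y axis, each panel spanning the same range around the gene's mean) of 12 subunit genes on each array of shRunx2 day 9, Scr day 9 and Scr day 0 cells. Points are arrays and bars are group means with SD (n = 3). Atp5e lies at 10.87 to 10.98 and 10.98 to 11.21 in the day 9 groups, above 10.39 to 10.60 at day 0, whereas Atp5pb lies below its day 0 values in both.

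Complex V held the largest rise. Atp5e encodes the epsilon subunit, the smallest part of the rotating central stalk of the F1 head. It read 11.21, 11.02 and 10.98 on the Scr day 9 arrays, against 10.60, 10.40 and 10.39 on the Scr day 0 arrays. Every day 9 array was above every day 0 array, and the change was 0.61 ± 0.070 (1.53-fold, adjusted p = 3.41e-05). The other 4 genes of the F1 head and central stalk did not pass, from -0.05 for Atp5b, the catalytic beta subunit, to 0.06 for Atp5c1, the gamma subunit. Atp5k read 10.82, 10.75 and 10.86 in Scr day 9 cells, against 10.51, 10.45 and 10.40 in Scr day 0 cells, again without overlap (0.36 ± 0.058, adjusted p = 0.000491). It was 1 of 3 risers among the 5 small membrane subunits, with Atp5mpl (0.21) and Atp5l (0.17), calls that were lost without replicate 1 of Scr day 9 or replicate 3 of Scr day 0, among others. The probe sets of Atp5l ran from 0.21 to -0.18. In the peripheral stalk, which holds the head still, Atp5h rose by 0.15 (lost without replicate 1 of Scr day 9 or replicate 2 of Scr day 0) while Atp5pb, the b subunit, fell. Atp5pb read 11.68, 11.60 and 11.68 in Scr day 9 cells, against 11.84, 11.86 and 11.83 in Scr day 0 cells. The groups did not overlap, and the change was -0.19 ± 0.036 (adjusted p = 0.00168). A second probe set of Atp5pb gave -0.19 as well. The division of the complexes into these roles was made after the values were seen.

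Among the 36 genes of complex I 11 rose and none fell with limma, and 14 (38.9%) were past an unadjusted p of 0.05, as were 38.6% of all genes. Of the 6 measured core subunits, which form the catalytic part with its flavin and iron-sulfur clusters, Ndufv2 (0.19) and Ndufs3 (0.19) rose. The other 9 risers were among the 30 accessory subunits, counted here with Ndufa4 and Ndufa4l2, although the Ndufa4 protein is now placed in complex IV. Ndufa1, an accessory subunit of the membrane arm encoded on chromosome X, read 9.99, 9.71 and 9.74 in Scr day 9 cells, against 9.62, 9.34 and 9.47 in Scr day 0 cells. The day 9 arrays were all higher, with replicate 1 well above the others (0.34 ± 0.086, adjusted p = 0.00985). Ndufa6 rose by 0.25 ± 0.069 (adjusted p = 0.0139, or 0.0518 without replicate 1 of Scr day 9). Ndufb3, a membrane arm subunit, read 9.37, 9.39 and 9.27 in Scr day 9 cells, against 9.16, 9.05 and 9.06 in Scr day 0 cells, with no overlap (0.25 ± 0.047, adjusted p = 0.00128). Ndufb2 rose by 0.24 ± 0.072 (adjusted p = 0.0223), a call lost without replicate 1 of Scr day 0 (0.0692) or without replicate 2 of that group. Ndufb5, another subunit of the membrane arm, had the smallest adjusted p of the complex. It read 11.75, 11.64 and 11.74 in Scr day 9 cells, against 11.50, 11.48 and 11.43 in Scr day 0 cells, and the groups lay apart (0.24 ± 0.042, adjusted p = 0.00085). The lowest change in complex I was that of Ndufs5 (-0.10).

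Complex III moved in both directions. Uqcrh read 11.95, 11.96 and 12.01 in Scr day 9 cells, against 11.73, 11.65 and 11.65 in Scr day 0 cells, so the groups lay apart (0.30 ± 0.063, adjusted p = 0.0034). The small subunits Uqcr11 (0.25 ± 0.072, adjusted p = 0.0204) and Uqcr10 (0.15 ± 0.051, adjusted p = 0.0425) also rose. The call of Uqcr11 was lost without replicate 1 of Scr day 9 (0.0864) or without replicate 2 of Scr day 0, and that of Uqcr10 was lost when any array but replicate 3 of Scr day 0 or replicate 2 of Scr day 9 was left out. Uqcrc1, a large matrix-facing core protein, read 11.56, 11.52 and 11.47 in Scr day 9 cells, against 11.58, 11.86 and 11.74 in Scr day 0 cells. Its fall of -0.21 ± 0.069 (adjusted p = 0.0396) was lost in 9 of 18 alternative settings and reached an adjusted p of 0.162 without replicate 2 of Scr day 0. Uqcrfs1, the Rieske iron-sulfur protein, changed by 0.02 ± 0.041 (adjusted p = 0.733).

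In complex IV, 2 of 17 genes rose and 1 fell. Cox6c had the smallest adjusted p: it read 13.54, 13.55 and 13.50 in Scr day 9 cells, against 13.39, 13.38 and 13.38 in Scr day 0 cells. The difference was small but the groups lay apart (0.14 ± 0.035, adjusted p = 0.00717). Cox7a2 rose by 0.20 ± 0.049 (adjusted p = 0.00856). Cox5a, a matrix-side subunit, read 10.96, 10.96 and 10.92 in Scr day 9 cells, against 11.17, 11.06 and 11.09 in Scr day 0 cells. All day 9 arrays were lower (-0.16 ± 0.046, adjusted p = 0.0178), and the call was lost without replicate 1 of Scr day 0 (0.0684) or without replicate 3 of Scr day 9. In complex II, which is also an enzyme of the citric acid cycle, Sdhc read 12.26, 12.26 and 12.28 in Scr day 9 cells, against 12.15, 12.05 and 12.08 in Scr day 0 cells. It was the only riser of the 4 genes (0.17 ± 0.044, adjusted p = 0.0115, or 0.0522 without replicate 2 of Scr day 0). The flavoprotein Sdha changed by 0.02 ± 0.037, the iron-sulfur subunit Sdhb by 0.05 ± 0.091 and the second anchor Sdhd by 0.03 ± 0.053, none past the threshold.

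**Figure D3:**
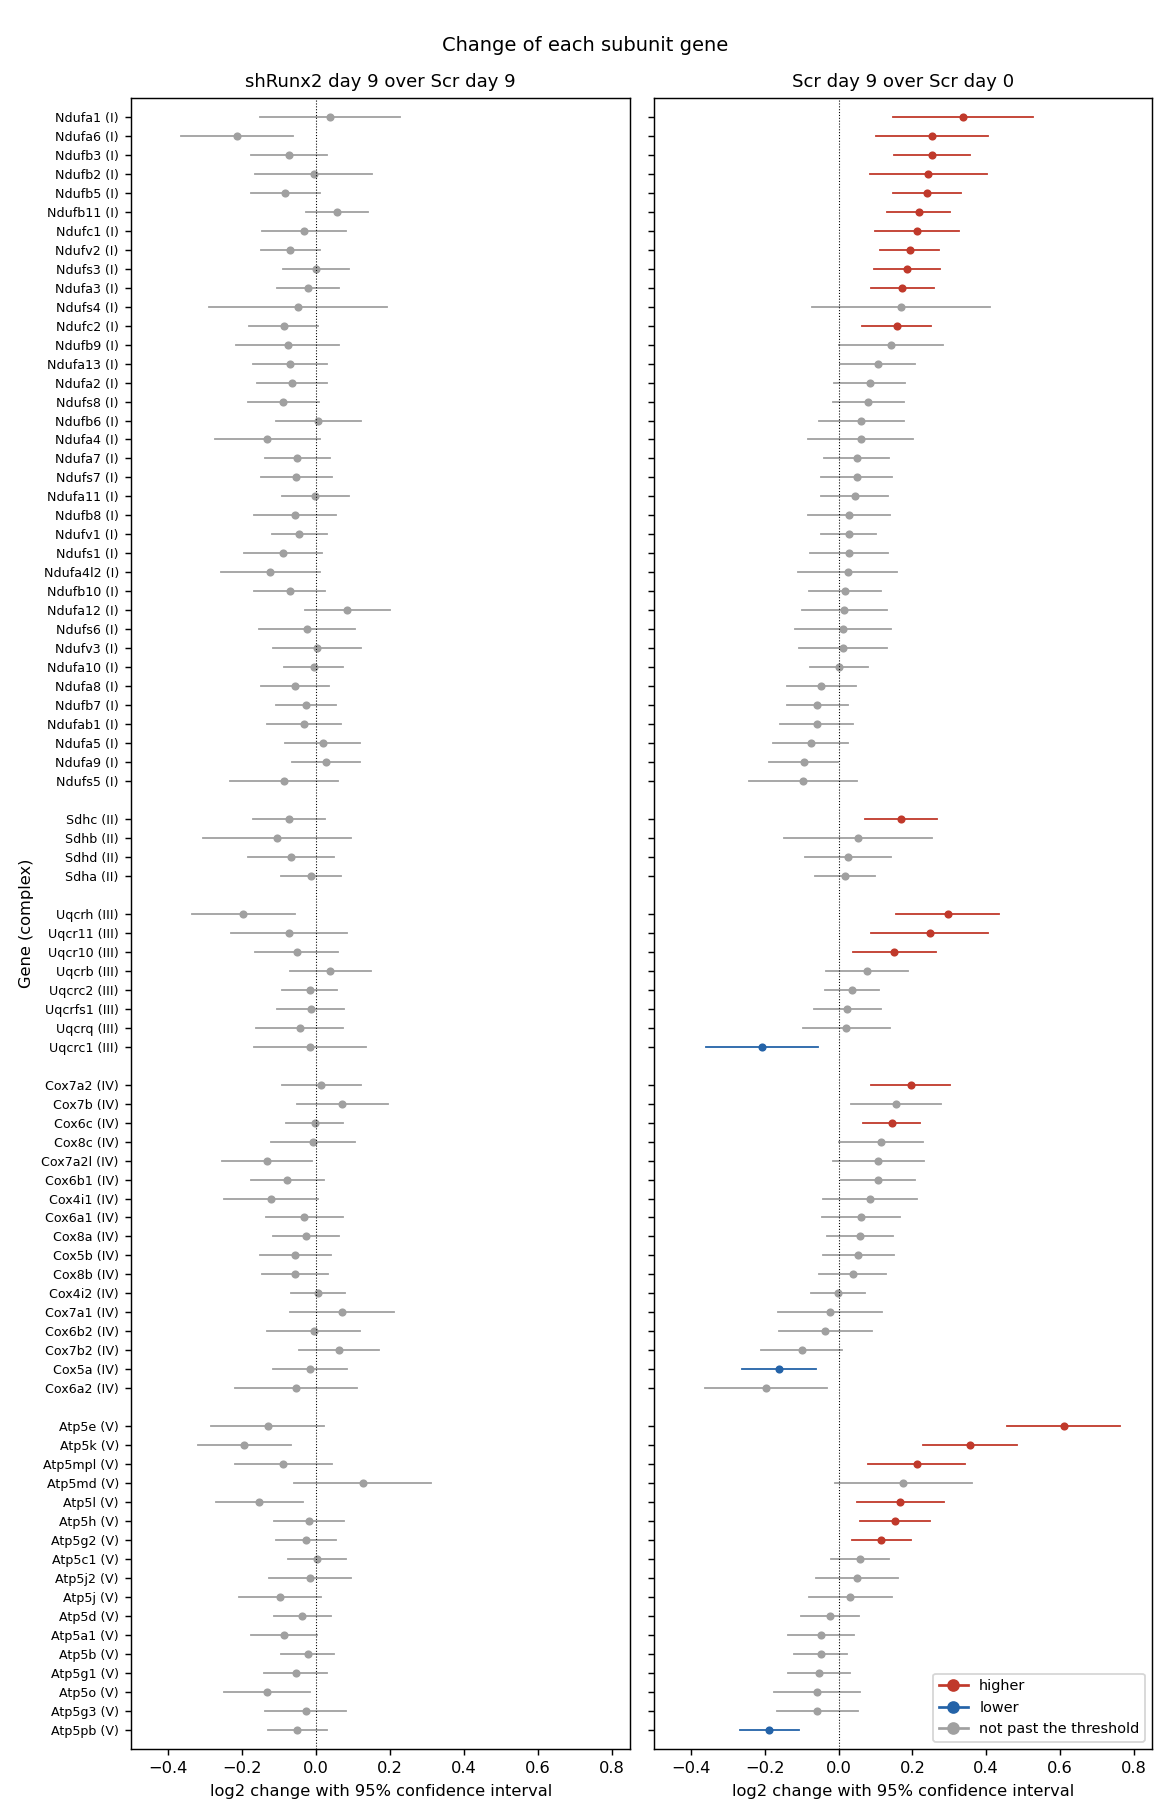
Log2 change with its 95% confidence interval (x axis) for each of the 82 subunit genes (y axis, complex in brackets), in shRunx2 day 9 over Scr day 9 cells (left) and Scr day 9 over Scr day 0 cells (right). Red and blue mark genes that rose or fell at an adjusted p under 0.05. Intervals on the left all lie between -0.37 and 0.31, and on the right Atp5e reaches 0.76. Both panels use the Scr day 9 arrays, with opposite sign.

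In shRunx2 day 9 against Scr day 0 cells 16 genes rose (19.5%), where 13.8% of all genes did, and 7 fell (8.54%), where 20.4% of all genes did. The median change was 0.014, beside -0.0087 over all genes, and turned to -0.021 with arrays centred on the median. It was -0.0027 without replicate 2 of shRunx2 day 9. The number of rises was 10 without replicate 3 of shRunx2 day 9, and the number of falls was 3 to 8 when single arrays were left out: 3 without replicate 1 of shRunx2 day 9 or replicate 2 of Scr day 0, and 4 without replicate 3 of shRunx2 day 9 or replicate 3 of Scr day 0. Atp5e led the rises at 0.48 ± 0.070 (adjusted p = 0.000195), from 10.87, 10.97 and 10.98 in shRunx2 day 9 cells against the 10.39 to 10.60 of Scr day 0 cells. Ndufa1 read 9.73, 9.91 and 9.91 in shRunx2 day 9 cells, above the 9.34 to 9.62 of Scr day 0 cells (0.37 ± 0.086, adjusted p = 0.00475). Atp5md, a small ATP synthase subunit, read 13.30, 13.05 and 13.38 in shRunx2 day 9 cells, against 12.94, 12.86 and 13.03 in Scr day 0 cells, a narrow separation (0.30 ± 0.084, adjusted p = 0.0156). Its call was lost without replicate 1 or 3 of shRunx2 day 9 or replicate 2 of Scr day 0. The dimmest probe set of Atp5md went the other way in this comparison, at -0.19, and its remaining one was at 0.32.

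Of the 7 falls in that comparison 4 were in complex V. Atp5pb read 11.60, 11.60 and 11.62 in shRunx2 day 9 cells, below the 11.83 to 11.86 of Scr day 0 cells (-0.24 ± 0.036, adjusted p = 0.000266). The others of complex V were Atp5o (-0.19), a further peripheral stalk subunit, Atp5a1 (-0.13), the alpha subunit of the head, and Atp5g1 (-0.11), a gene for the c ring. All 3 calls were lost without replicate 1 of shRunx2 day 9. That of Atp5g1 (adjusted p = 0.0478) passed in only 6 of 18 alternative settings. It was also lost without replicate 2 or 3 of any of the 3 groups, and the second probe set of Atp5g1 was at 0.16. Cox6a2 had the lowest change, -0.25 ± 0.075 (adjusted p = 0.0213), with 9.43, 9.38 and 9.20 in shRunx2 day 9 cells and 9.43, 9.68 and 9.65 in Scr day 0 cells, so the groups touched. Its call was lost without replicate 2 or 3 of Scr day 0 or replicate 3 of shRunx2 day 9. Uqcrc1 fell by 0.22 on the log2 scale (SE 0.069, adjusted p = 0.0251) and Cox5a by 0.18 (SE 0.046, adjusted p = 0.00938). The call of Uqcrc1 was lost without replicate 2 or 3 of Scr day 0 or replicate 1 or 3 of shRunx2 day 9. Both comparisons with day 0 use the same Scr day 0 arrays, so their values are given side by side only: Atp5e 0.48 in shRunx2 day 9 and 0.61 in Scr day 9, Atp5k 0.16 and 0.36 in that order, Uqcrh 0.10 and 0.30, Ndufa6 0.04 and 0.25, Ndufa1 0.37 and 0.34, Atp5pb -0.24 and -0.19. For each gene the gap between these values is its change after knockdown, and none of the 6 passed that test.

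The genes with tissue-restricted partners gave no call after knockdown. Cox4i1, the form of subunit 4 found in most tissues, changed by -0.12 ± 0.058 in shRunx2 day 9 against Scr day 9 cells, and Cox4i2, the form known from lung and from low oxygen, by 0.00 ± 0.033. Cox4i2 was nearly constant, at 8.76 to 8.81 over the 9 arrays. Ndufa4 changed by -0.13 ± 0.064 and its relative Ndufa4l2, a gene induced by low oxygen, by -0.12 ± 0.061. In the Cox6a, Cox6b, Cox7a and Cox8 sets the changes after knockdown were -0.03 for Cox6a1 and -0.06 for Cox6a2, a heart and muscle form. They were -0.08 for Cox6b1 and -0.01 for Cox6b2, a testis form. They were 0.07 for Cox7a1, a heart and muscle form, and 0.01 for Cox7a2. They were -0.03 for Cox8a, -0.06 for Cox8b and -0.01 for Cox8c. In Scr day 9 against Scr day 0 cells Cox7a2 was the only one of the 14 complex IV and Ndufa4 isoform genes to pass. Cox6a2 was at -0.20 ± 0.075 there (adjusted p = 0.07). The c ring of ATP synthase is built from an identical mature protein made by Atp5g1, Atp5g2 and Atp5g3. Atp5g2 rose in Scr day 9 against Scr day 0 cells (0.12 ± 0.037, adjusted p = 0.0312), a call lost in 7 of 18 alternative settings, among them leaving out replicate 1 or 2 of Scr day 0 or any 1 array of Scr day 9. Atp5g1 and Atp5g3 were at -0.05 and -0.06 and did not pass.

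A gene was read from its brightest probe set, and 17 of the 82 genes had more than 1. A further probe set had the opposite sign in 8 of these 17 after knockdown, in 6 in Scr day 9 against Scr day 0 cells and in 7 in shRunx2 day 9 against Scr day 0 cells. After knockdown a further probe set of Atp5g2 was at 0.33 (adjusted p = 0.0519 over all probe sets), against -0.03 for the brightest. In shRunx2 day 9 against Scr day 0 cells that further probe set was at 0.67 (adjusted p = 0.000203), where the brightest was at 0.09 and the third at -0.14. In Scr day 9 against Scr day 0 cells it was at 0.34 (adjusted p = 0.00942), where the brightest was at 0.12 and the third at 0.09. In Scr day 9 against Scr day 0 cells the widest disagreement with a brightest probe set was in Atp5g1. There the second, dimmer probe set gave 0.57 (adjusted p = 0.00399 over all probe sets) against -0.05 for the brightest. After knockdown that probe set was at -0.41 (adjusted p = 0.084 on the same basis). With the mean of both, Atp5g1 was at 0.26 (adjusted p = 0.00577) in Scr day 9 against Scr day 0 cells and at -0.23 (adjusted p = 0.0407) after knockdown. Atp5l had 5 probe sets, from 0.21 to -0.18 in Scr day 9 against Scr day 0 cells, the lowest of them past the threshold (adjusted p = 0.0213) in the direction opposite to the brightest. Of the 3 probe sets of Atp5md the dimmest was at -0.19 in shRunx2 day 9 against Scr day 0 cells, where the others were at 0.30 and 0.32. Which of these probe sets lies in the gene and which in a near-identical copy is not given by the annotation used here.

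Promoter sequence was examined because several regulators of these genes are known. NRF1, the GABP factor of the ETS family, ERR and YY1 bind promoters of nuclear genes for the respiratory chain in mammals. RefSeq promoters of assembly GRCm38.p6, from 250 bases before to 50 bases after the start, were available for 67 of the 82 genes. The 2 printed first belong to the genes with the largest rise and with the fall that passed in every setting. Capitals mark the letters GGGCGG (Sp1) on either strand, the only 1 of the 7 motifs searched that occurred in them, with 2 matches in each.
Atp5e (chr2:174464052-174464351, minus strand): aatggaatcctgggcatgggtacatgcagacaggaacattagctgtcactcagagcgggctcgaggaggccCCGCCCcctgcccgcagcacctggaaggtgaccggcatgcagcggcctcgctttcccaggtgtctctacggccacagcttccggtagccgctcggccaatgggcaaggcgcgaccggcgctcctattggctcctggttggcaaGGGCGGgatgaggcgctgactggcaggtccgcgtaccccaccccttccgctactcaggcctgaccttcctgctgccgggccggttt
Atp5pb (chr3:105959214-105959513, minus strand): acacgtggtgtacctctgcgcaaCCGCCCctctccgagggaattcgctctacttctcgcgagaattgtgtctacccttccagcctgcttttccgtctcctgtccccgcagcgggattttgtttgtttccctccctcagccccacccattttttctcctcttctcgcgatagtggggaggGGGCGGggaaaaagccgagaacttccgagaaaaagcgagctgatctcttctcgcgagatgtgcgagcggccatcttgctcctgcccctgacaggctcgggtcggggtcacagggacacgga
Sp1 letters were found in 41.8% of the 67 genes and in 53% of the 15562 genes tested on the arrays that had a promoter, so a match in these promoters is common.

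The letters GCGCATGCG (NRF1) occurred in 8 of the 67 genes (11.9%), against 2.86% of the genes tested. The 8 genes were Atp5g2, Atp5k, Atp5l, Cox6a1, Ndufa8, Ndufa11, Uqcr11 and Uqcrc1. Of the 20 genes that rose in Scr day 9 cells and had a promoter 4 held it. Of the 44 that did not pass 3 did, and of the 3 that fell 1 did. Windows of 60 bases are shown for the genes that rose or fell, with the match in capitals. Of these genes only Atp5k kept its call in all 18 alternative settings. Where the capitals run over 10 bases the motif and its reverse complement overlap, as the core is nearly its own reverse complement.
Atp5k (chr5:108434415-108434474, minus strand): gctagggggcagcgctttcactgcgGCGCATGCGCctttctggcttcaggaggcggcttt
Atp5l (chr9:44920933-44920992, minus strand): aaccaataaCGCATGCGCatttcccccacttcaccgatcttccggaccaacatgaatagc
Atp5g2 (chr15:102671055-102671114, minus strand): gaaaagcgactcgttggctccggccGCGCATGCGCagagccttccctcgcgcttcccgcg
Uqcr11 (chr10:80406793-80406852, minus strand): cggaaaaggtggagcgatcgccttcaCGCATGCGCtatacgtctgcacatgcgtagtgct
Uqcrc1 (chr9:108936638-108936697, plus strand): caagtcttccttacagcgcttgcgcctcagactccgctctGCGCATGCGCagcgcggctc
The match lay from -50 to -41 relative to the start in Atp5k, from -241 to -233 in Atp5l, from -42 to -33 in Atp5g2, from -5 to 4 in Uqcr11 and from 31 to 40 in Uqcrc1.

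The letters CCGGAAGT (ETS and GABP) occurred in 5 of the 67 genes (7.46%), against 6.03% of the genes tested. They were Uqcrh, Atp5h, Ndufs3, Uqcr11 and Cox8a. Of the 20 genes that rose in Scr day 9 cells and had a promoter 4 held it. Of the 44 that did not pass 1 did, and of the 3 that fell none did. The calls of Atp5h and Uqcr11 were lost when some single arrays were left out. The first 4 genes are those that rose and are shown with the match in capitals.
Uqcrh (chr4:116075048-116075107, minus strand): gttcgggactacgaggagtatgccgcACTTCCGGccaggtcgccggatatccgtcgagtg
Atp5h (chr11:115419925-115419984, minus strand): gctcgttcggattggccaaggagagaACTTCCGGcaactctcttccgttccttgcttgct
Ndufs3 (chr2:90904688-90904747, minus strand): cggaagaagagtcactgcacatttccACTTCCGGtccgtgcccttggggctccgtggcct
Uqcr11 (chr10:80406854-80406913, minus strand): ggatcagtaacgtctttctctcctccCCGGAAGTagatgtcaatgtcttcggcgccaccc
Uqcr11 held both motifs. The letters AAGATGGCG (YY1) were in 10.4% of the 67 genes and 2.29% of the genes tested, TCAAGGTCA (ERR) in 2.99% and 0.347%, the core promoter letters TATAAA in 11.9% and 13.6%, and TGTGGT (Runx) in 11.9% and 16.4%. Among the 20 genes that rose and the 44 that did not pass, YY1 letters were in 5% and 13.6%, and ERR letters in 0% and 4.55%. In the same order, Sp1 letters were in 40% and 40.9%, TATAAA in 10% and 13.6%, and Runx letters in 15% and 11.4%. Both strands were searched for exact letters, and no test was made. A match is a description of the sequence, not a bound site.

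**Figure D4:**
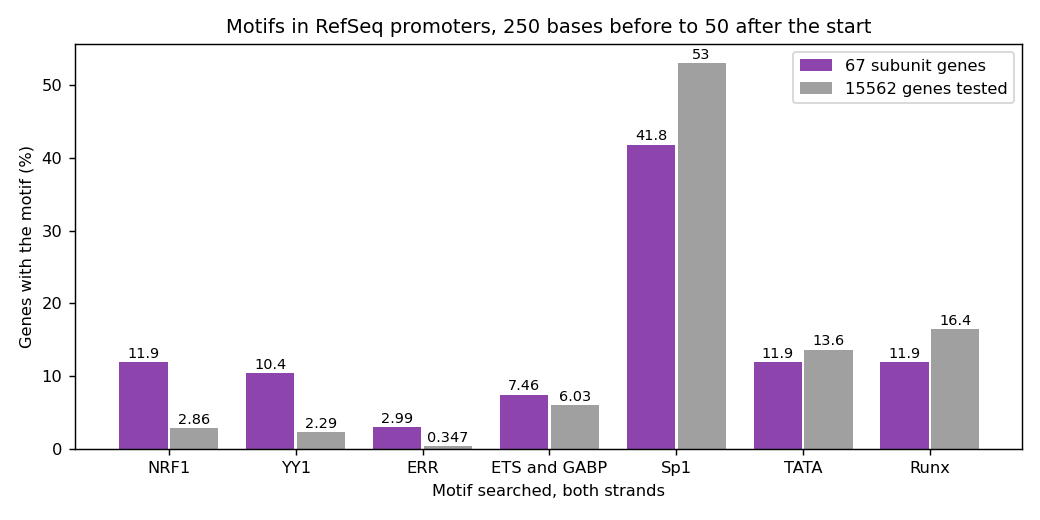
Percent of genes (y axis) whose RefSeq promoter holds each motif (x axis), for the 67 subunit genes with a promoter and for the 15562 genes tested on the arrays that have one. NRF1 letters are in 11.9% and 2.86%, YY1 in 10.4% and 2.29%, and Runx in 11.9% and 16.4%.

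Genes that work around these complexes were read in the same fits. After knockdown 2.73% of all genes rose and 4.66% fell, and 19.6% were past an unadjusted p of 0.05. Of 43 measured assembly factors 1 fell (2.33%) and none rose, with 6 (14%) past that unadjusted p. The factor that fell was Bcs1l, which places the Rieske protein into complex III (-0.35 ± 0.066, adjusted p = 0.00816). Of 16 electron carrier genes and 17 genes of the citric acid cycle and pyruvate entry none passed (0 and 1 at an unadjusted p under 0.05). Of 15 genes for mitochondrial biogenesis and DNA upkeep 2 fell (13.3%), with 4 (26.7%) past an unadjusted p of 0.05. They were Twnk, the mitochondrial DNA helicase (-0.26 ± 0.046, adjusted p = 0.00516), and Ppargc1a, a coactivator that drives mitochondrial biogenesis (-0.21 ± 0.047, adjusted p = 0.0182). The call of Ppargc1a was lost without any 1 array of Scr day 9 and without replicate 2 or 3 of shRunx2 day 9 (up to 0.066).

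In Scr day 9 against Scr day 0 cells the same lists moved both ways, beside 14.5% of all genes that rose and 17.1% that fell. Of the assembly factors 12 rose (27.9%) and 9 fell (20.9%), from Uqcc1 at -0.46, a complex III factor, to Coa3 at 0.45, a complex IV factor. Of the electron carrier genes 5 rose (31.2%) and 4 fell (25%). Among those that fell was Cyc1, the cytochrome c1 subunit of complex III, which the symbol rule leaves out (-0.21 ± 0.051, adjusted p = 0.00815). Of the citric acid cycle genes 3 rose (17.6%) and 4 fell (23.5%), from Dlst at -0.42, a subunit of the oxoglutarate dehydrogenase complex, to Suclg2 at 0.35, a succinate-CoA ligase subunit. Of the biogenesis genes 5 rose (33.3%) and 4 fell (26.7%). Ppargc1a rose by 0.36 ± 0.047 and Gabpa by 0.25 ± 0.055, while Nrf1 fell by 0.28 on the log2 scale, Gabpb1 by 0.40 and Pprc1, a relative of Ppargc1a, by 0.44.

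The 82 genes lie on 19 chromosomes, with at most 9 on a single chromosome. The 3 on chromosome X, Ndufa1, Ndufb11 and Cox7b, were at 0.37, 0.27 and 0.23 in shRunx2 day 9 against Scr day 0 cells, and all 3 rose. In Scr day 9 against Scr day 0 cells they were at 0.34, 0.22 and 0.16, and Cox7b did not pass. Ndufb11 and Cox7b had 2 probe sets each, and which of them lies in the gene is not given by the annotation used here. Probe set numbers mostly ran by chromosome among the subunit genes. The dimmer sets of Ndufb11 and Cox7b were numbered near that of Ndufa1, and the brightest sets, which were read here, were not. The values read for these 2 genes may therefore come from near-identical copies elsewhere, which was not tested. Ndufb11, a membrane arm subunit of complex I, read 12.68, 12.65 and 12.71 in shRunx2 day 9 cells, 12.65, 12.57 and 12.65 in Scr day 9 cells and 12.40, 12.37 and 12.45 in Scr day 0 cells. It was the 1 gene of the 82 whose shRunx2 day 9 arrays all lay above the Scr day 9 arrays, with a change of 0.06 ± 0.038 (adjusted p = 0.488), and its second probe set was at -0.07. Against Scr day 0 cells that second probe set was at 0.21 in shRunx2 day 9 and 0.28 in Scr day 9 cells (adjusted p = 0.0282 and 0.00913 over all probe sets). Cox7b read 13.24, 13.13 and 13.36 in shRunx2 day 9 cells, 13.24, 13.12 and 13.16 in Scr day 9 cells and 13.01, 13.04 and 13.00 in Scr day 0 cells. It was past the threshold in shRunx2 day 9 cells (adjusted p = 0.00719) and at 0.16 ± 0.055 in Scr day 9 cells (adjusted p = 0.054), and the difference between these was not past it (0.07 ± 0.055, adjusted p = 0.553). The second, dimmer probe set of Cox7b passed in both, at 0.22 in shRunx2 day 9 and 0.18 in Scr day 9 against Scr day 0 cells (adjusted p = 0.0165 and 0.0437 over all probe sets).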

How the data were processed

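Affymetrix Mouse Gene 1.0 ST arrays measured total RNA of 9 samples. The deposited table held log2 values that the authors made with RMA (background correction, quantile normalization, median polish), which can compress small changes. The submitters' notes list RMA and limma with no versions. The methods mention a filter without saying what it removed. No genome build was given for the values in the sources used here. Of 34760 probe sets 21640 carried 1 gene symbol, 1321 several and 11799 none in the platform annotation. The brightest probe set of a gene was kept.

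Group means of all 9 arrays were fitted with limma 3.58.1 in R 4.3.3 (lmFit, eBayes; no covariate), with Benjamini-Hochberg adjustment over 19937 genes, and the fit was tested on simulated data. The number of arrays limits the precision. Genes described singly were the largest calls of each comparison (8 each way, 3 in the third), the smallest adjusted p of each complex and the isoform sets; Atp5o, Atp5a1, Atp5l, Atp5mpl, Atp5h, Ndufb11, Cox7b, Ndufv2, Ndufs3, Uqcr10, Uqcrfs1 and the list genes were added after their values were seen. The members and lists were chosen with earlier results of these data known. The alternatives were array centring, quantile normalization, a brightness filter, other uses of probe sets, a replicate block, an intensity trend, array weights, the 2 groups alone and leaving out each array. Runx2, Ndufb1 and Ndufb4c are not analysed here. Cox7c, Ndufb4 and Ndufb4b were left out of the tests, and only changes of probe sets that they share with other symbols are given at the end.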

Additional observations from a re-analysis of the deposited data

How the results depend on the processing

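Each comparison was refitted under 18 alternatives. After knockdown the number of members that rose was 0 in all of them. The number that fell was 3 with genes above the median brightness only, 2 with array weights, 1 with the mean of all probe sets, 1 with the arrays of the 2 groups only and 0 to 1 when single arrays were left out. In Scr day 9 against Scr day 0 cells the median change was 0.0197 with centred arrays, which moved the median of all genes to -0.049, and falls numbered 6 with centred arrays, 5 with array weights and 1 to 3 when single arrays were left out. In shRunx2 day 9 against Scr day 0 cells the median change was -0.021 with centred arrays, 0.071 after quantile normalization and -0.0027 to 0.048 when single arrays were left out. Rises numbered 10 to 16 when single arrays were left out. Falls numbered 11 with centred arrays, 3 after quantile normalization, 4 with every probe set in the fit, 4 with the arrays of the 2 groups only and 3 to 8 when single arrays were left out. Among single genes Atp5g1 changed sign with the mean of its probe sets, to 0.258 in Scr day 9 and 0.0263 in shRunx2 day 9 cells against Scr day 0, and of the other values for single genes 73 lost and 28 gained a call. Causes were not tested. With the replicate number as a block, rises and falls numbered 0 and 0 after knockdown, 23 and 3 in Scr day 9 and 15 and 6 in shRunx2 day 9 cells against Scr day 0. Deviations of same-numbered arrays correlated at -0.114 to 0.294 and those of other arrays at -0.293 to 0.115. Between Scr day 9 and Scr day 0 the same-numbered arrays were at 0.294, 0.0823 and 0.285, though replicate 2 of Scr day 9 correlated better with replicate 3 of Scr day 0 (0.11). The labels tie no number to a shared culture or day, and whether the numbers pair the samples of these groups is not settled by these values. With 3 arrays a group, small changes could be missed. After knockdown 6 subunit genes had an unadjusted p under 0.05 and none passed after adjustment.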

Other observations

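Probe sets that carry several symbols were left out of the tests, and 6 of them hold members of these complexes. A probe set shared by Cox7c, a complex IV subunit, and the predicted gene Gm12338 was at -0.02 in shRunx2 day 9 against Scr day 9 cells and at 0.18 in Scr day 9 against Scr day 0 cells. A probe set shared by Ndufb4 and Ndufb4b, of complex I, was at 0.01 and 0.21 in the same order, and another at 0.27 and 0.31. A probe set shared by Ndufs5 and its pseudogene was at 0.13 and -0.14.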
